A study of Homo sapiens
Mus musculus with 3 samples.

Results

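The CD3 complex was followed through 3 single-cell RNA-seq libraries of a human and mouse lymphocyte mixture by its 4 subunit genes in each species. The human genes were CD3D (ENSG00000167286), CD3E (ENSG00000198851), CD3G (ENSG00000160654) and CD247 (ENSG00000198821). The mouse genes were Cd3d (ENSMUSG00000032094), Cd3e (ENSMUSG00000032093), Cd3g (ENSMUSG00000002033) and Cd247 (ENSMUSG00000005763). These 8 genes were chosen by identifier from the 60736 gene rows of the read tables, and all 8 were present once in every table. The rule used no measured value, but the choice was made with earlier results of these data known. In the human RefSeq annotation (GRCh38.p14), CD3E, CD3D and CD3G are direct neighbours with 0 other coding genes between them, whereas CD247 lies on another chromosome.

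The T-cell receptor recognises antigen through its variable chains, which have almost no intracellular part of their own. The signal is passed on by the CD3 chains: delta (CD3D) and gamma (CD3G) each pair with epsilon (CD3E) beside the receptor, and zeta (CD247) joins as a dimer with long cytoplasmic tails. All of these chains carry immunoreceptor tyrosine-based activation motifs, which the kinase Lck phosphorylates. Assembly of the chains is needed for the receptor to reach the cell surface, and CD3 is used as the defining surface marker of T cells. Mature B cells and hybridomas do not normally carry it.

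Every library was prepared from an equal mixture of Jurkat, TALL104, EL4 and IVA12 cells. No treatment of the mixture is described, but per the study's methods TALL104 cells were grown with added IL-2, and the other lines were not. The human lines, Jurkat and TALL104, are leukemic T cells. Of the mouse lines, EL4 comes from a T-cell lymphoma and IVA12 is a hybridoma that makes antibody, and so is of B-cell kind. Cells were isolated in the nanowells of the iCELL8 cx, and transcript 3' ends were counted. The official 3'DE kit gave 2 libraries, and the 3'DE-UMI protocol, which clears the barcoding primers away ahead of the amplification step and counts unique molecular identifiers (UMIs), gave 1 library. Per the study's sample list, 3'DE library 1 came from a cell mixture of its own, and the others shared a second one, so replicate and mixture cannot be told apart among the 3'DE libraries. The libraries are separate preparations of established lines, and the p-values below measure the spread between these libraries only. That spread is estimated largely from all genes tested together, not from each gene alone.

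The libraries held 35581264, 109702878 and 44883618 gene-assigned reads. Values are given throughout in the order 3'DE library 1, 3'DE library 2, 3'DE-UMI library. After removal of shallow wells and of mixed wells, in which the minor species held at least 10% of reads, 1455, 1257 and 1257 single-species wells remained. Clustering without the 8 genes gave 2 clusters per species. Mouse cluster 1 held 474, 498 and 470 wells, mouse cluster 2 held 448, 275 and 230, human cluster 1 held 407, 448 and 528, and human cluster 2 held 126, 36 and 29. Because no table used here pairs the identifiers of other genes with symbols, the marker genes of the lines could not be looked up, and the clusters are called by number, not by line. Human cluster 2 was shallow, with medians of 4536, 9509 and 4827 reads per well against 26532, 38468 and 17797 in human cluster 1. Between libraries, 336 to 378 barcodes of these wells were shared and 111 occurred in all 3, as the barcodes come from 1 fixed set for the chip.

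All 4 mouse CD3 genes were far higher in mouse cluster 1 than in mouse cluster 2. The values below are levels in CPM, the reads of a gene per 1000000 reads of the wells' own species, after summing over the wells of a cluster in a library. They are counts of reads at transcript 3' ends, not divided by gene length. Because the reads per UMI differed between genes (given below), each gene is compared with itself across clusters and libraries. Cd3d, the delta chain, was at 1574, 1829.6 and 1419.7 CPM in mouse cluster 1 and at 10.4, 37.8 and 13.5 CPM in mouse cluster 2. Cd3g, the gamma chain, was at 831, 973 and 852 CPM in cluster 1 and at 5.61, 34.3 and 16.4 CPM in cluster 2. For both genes the lowest value of cluster 1 was over the highest of cluster 2, and within cluster 2 the highest value was that of 3'DE library 2.

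The epsilon and zeta chains gave few reads but showed the same order of the clusters. Cd3e was at 18.7, 25.8 and 44.1 CPM in mouse cluster 1 and at 0.229, 1.49 and 0.786 CPM in mouse cluster 2, where these levels rest on 2, 23 and 8 reads. Cd247 was at 19.2, 22.2 and 48.0 CPM in cluster 1 and at 1.03, 0.648 and 0 CPM in cluster 2, from 9, 10 and 0 reads. The clusters did not overlap for either gene. For how many of all mouse genes the clusters do not overlap was not counted, so this alone does not set the CD3 genes apart. In cluster 1 both genes had their highest level in the 3'DE-UMI library.

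In edgeR's quasi-likelihood test with the library as a block, 4 of 4 mouse genes were called higher in mouse cluster 1 at an adjusted p under 0.05. The background was 19.8% of 12098 mouse genes tested called in that direction and 39.0% called in either. The log2 difference was 6.72 ± 0.34 (SE, n = 3 libraries) for Cd3d, which is 105.4-fold (95% interval 62.1 to 179, adjusted p = 2.4e-06). It was 6.06 ± 0.41 for Cd3g (66.8-fold, adjusted p = 9.7e-06), 5.41 ± 0.53 for Cd3e (42.4-fold, adjusted p = 6.6e-05) and 5.86 ± 0.83 for Cd247 (58.1-fold, adjusted p = 0.00060). The median log2 difference was 5.96 over the 4 genes and -0.04 over all mouse genes tested. The intervals of the 4 differences overlapped one another. In mouse cluster 2, Cd3d reads per well were close to those in human cluster 1 (given below). Its fold therefore need not be a ratio of expression alone, and the part of this background in the 4 folds was not tested. Within single libraries, Cd3d was 151-fold, 48.4-fold and 105.5-fold higher in cluster 1, and 3'DE library 2 gave the smallest ratio for Cd3d, Cd3g and Cd3e. The sparse genes moved most with single libraries, by over 1.5 times: Cd3e was at 6.19 on the log2 scale without 3'DE library 2, and Cd247 at 6.81 without 3'DE library 1 and at 4.88 without the 3'DE-UMI library, all 3 still called. After thinning every well to 5000 reads, Cd3e was at 4.39 and Cd247 at 4.02.

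**Figure D1:**
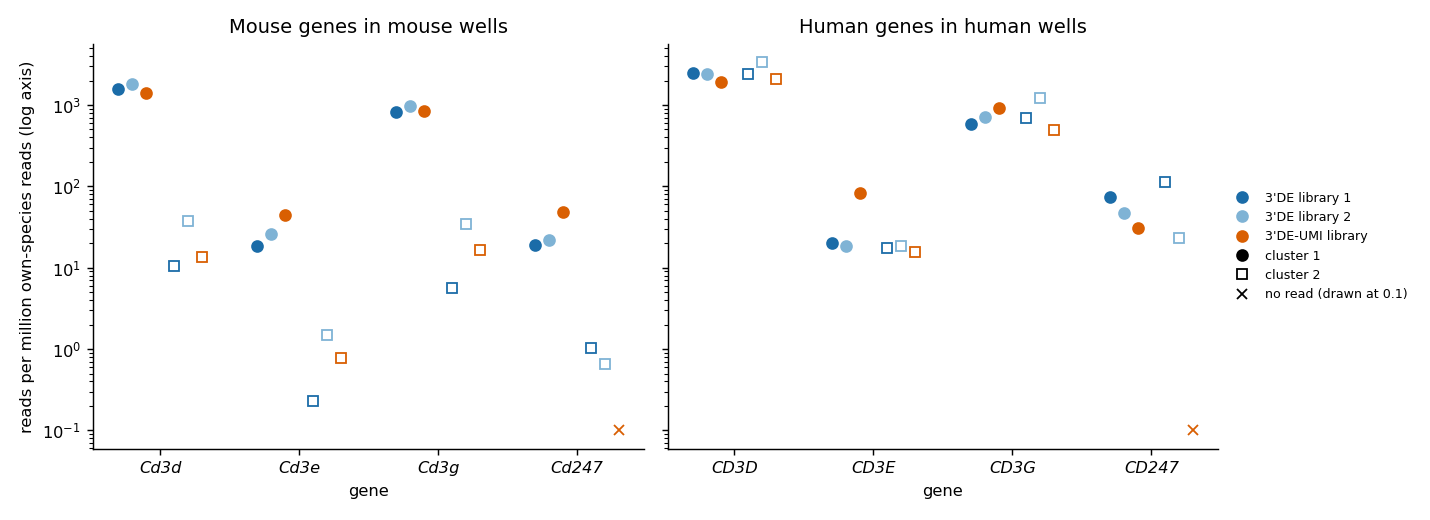
Level of each CD3 gene in CPM of own-species reads (log axis) by gene, for mouse genes in mouse wells and human genes in human wells. Each point is 1 library, filled circles are cluster 1, open squares are cluster 2 and a cross marks a library without a read; all 4 mouse genes are separated between the mouse clusters, while CD3D lies between 1897 and 3341 in both human clusters.

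In levels summed over wells, human CD3D and CD3G were abundant in both human clusters. CD3D was at 2477, 2382 and 1897 CPM in human cluster 1 and at 2394, 3341 and 2066 CPM in human cluster 2. CD3G was at 585, 713 and 918 CPM in cluster 1 and at 695, 1216 and 496 CPM in cluster 2. In cluster 2 a read of CD3G was found in 42.9%, 55.6% and 31.0% of wells. The well with most CD3G reads held 8.82%, 44.9% and 44.2% of them there, and for CD3D the top well held 4.40%, 21.1% and 20.2%. The clusters overlapped for both genes, and neither cluster was the higher one in every library.

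The weakly detected human subunits overlapped between the clusters as well. CD3E was at 20.2, 18.3 and 83.99 CPM in human cluster 1 and at 17.3, 18.6 and 15.6 CPM in human cluster 2. CD247 was at 73.4, 47.4 and 31.1 CPM in cluster 1 and at 112, 22.9 and 0 CPM in cluster 2. The cluster 2 values of these 2 genes rest on 11, 26 and 3 reads of CD3E and on 71, 32 and 0 reads of CD247. In human cluster 2 of 3'DE library 2, the well with most CD247 reads held 90.6% of them, and the well with most CD3E reads held 53.8% of those.

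No human member passed the same test between the human clusters (0 of 4 with edgeR, 0 of 4 with DESeq2, and 0 of 4 at an unadjusted p under 0.05). The background was 3.68% of 10748 human genes called. The log2 difference of cluster 1 minus cluster 2 was 0.01 ± 0.30 for CD3D (95% interval -0.58 to 0.59) and 0.13 ± 0.53 for CD3G (-0.91 to 1.17). For CD3E and CD247 the intervals were wide, at -2.77 to 4.69 and -2.34 to 4.97. The sums of human cluster 2 were small, with 636159, 1396420 and 191718 reads against 10174495, 46479670 and 15192579 in cluster 1, and the median log2 difference over all human genes tested was 1.82. Relative to that median, all 4 human values were lower, but the median was 1.61 with RLE factors and -0.05 with DESeq2, so this order was not kept with DESeq2, and the signs for CD3D and CD3G turned with other scaling factors (-0.19 and -0.063 with RLE factors). In summed levels, a difference between the human clusters was thus not detectable at this depth, with the limits that the intervals give. In wells thinned to equal depth, CD3G was read in 80.8%, 77.4% and 57.1% of human cluster 1. In human cluster 2 it was read in 44.0%, 61.5% and 28.6% of 50, 26 and 14 wells. CD3D and CD247 were also read less often there in every library, but CD3E was not in 3'DE library 2. Intervals were apart only in 3'DE library 1, for CD3G (76.6 to 84.6% against 30.0 to 58.7%), CD3D and CD247. These shares were not tested.

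**Figure D2:**
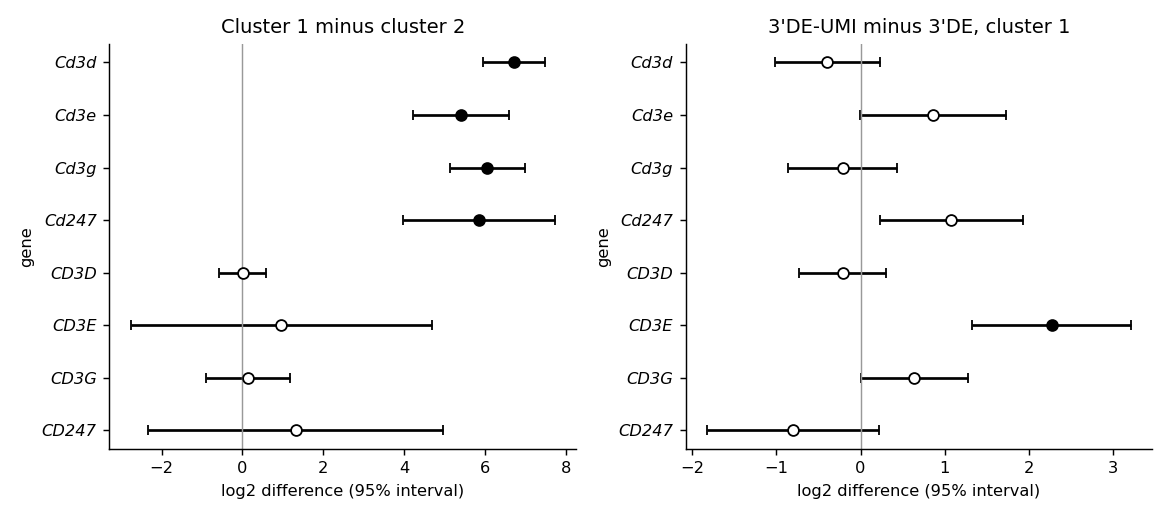
Log2 difference with its 95% interval by gene (edgeR), for cluster 1 minus cluster 2 within each species (left) and for 3'DE-UMI minus 3'DE within cluster 1 (right). Filled points have an adjusted p under 0.05; these are the 4 mouse genes at left, between 5.41 and 6.72, and CD3E at right, at 2.27.

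Single wells showed the same division for the abundant subunits. A read of Cd3d was found in 98.5%, 98.2% and 85.5% of the wells of mouse cluster 1, and a read of Cd3g in 97.0%, 93.2% and 67.7%. In mouse cluster 2 the shares were 5.58%, 61.1% and 11.7% for Cd3d and 5.13%, 38.2% and 6.96% for Cd3g. The high shares in 3'DE library 2 call for a background, which the human wells give.

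Human wells should hold no mouse transcript, yet Cd3d was read in 5.65%, 54.7% and 6.44% of the wells of human cluster 1, at median depths of 26532, 38468 and 17797 reads against 20319, 21748 and 33648 in mouse cluster 2. The exact 95% intervals of human cluster 1 and mouse cluster 2 overlapped in each library (3.62 to 8.36% and 3.64 to 8.13%, 49.9 to 59.4% and 55.1 to 66.9%, and 4.50 to 8.88% and 7.88 to 16.6%). Thinned to 5000 reads per well, the share for Cd3d was 2.05%, 16.9% and 2.66% in human cluster 1 and 2.58%, 19.4% and 3.13% in mouse cluster 2. Reads of Cd3d per well were also close, at 0.167, 2.20 and 0.288 in human cluster 1 and 0.203, 2.12 and 0.596 in mouse cluster 2, against 44.2, 148 and 54.7 in mouse cluster 1. Cd3d detection in mouse cluster 2 was thus close to this background, and nominally above it in each library after thinning. In 3'DE library 1 the background differed with the mouse reads of a human well. Over both human clusters, Cd3d was read in 1.94% (0.785 to 3.97%) of 360 wells with under 200 mouse reads. In the 173 wells with 200 or more it was read in 9.83% (5.83 to 15.3%), so the background has no single value.

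For Cd3e and Cd247 the few detections in mouse cluster 2 were likewise not told apart from those in human wells, while Cd3g lay nominally above them in each library. Cd3g was read in 3.19%, 30.1% and 1.14% of the wells of human cluster 1, with intervals overlapping those of mouse cluster 2 in 3'DE library 1 and 3'DE library 2 and not in the 3'DE-UMI library (0.418 to 2.46% against 4.03 to 11.1%). In 3'DE library 1, Cd3g was read in 0.278% (0.00703 to 1.54%) of human wells with under 200 mouse reads. That interval lies below the one of mouse cluster 2 (3.28 to 7.60%). In human wells with 200 or more mouse reads, Cd3g was read in 6.94% (3.64 to 11.8%). Thinned, the Cd3g shares in the 3'DE-UMI library were 0.818% in human cluster 1 and 3.13% in mouse cluster 2, where 1 well held 22.8% of the Cd3g reads. Cd3e was read in 0.446%, 5.45% and 0.435% of the wells of mouse cluster 2 and in 0.246%, 5.58% and 0% of human cluster 1. Cd247 was read in 0.670%, 1.45% and 0% of the former and 0%, 2.01% and 0.189% of the latter; the 0 of 230 wells in mouse cluster 2 allows a share of up to 1.304%, counting error only.

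Part of the reads of mouse cluster 2 came from single wells. The well with most Cd3d reads held 33.0%, 35.0% and 45.3% of all Cd3d reads of that cluster, compared with 0.841%, 2.98% and 1.27% in mouse cluster 1. Wells that caught 2 cells of the same species cannot be recognised in these tables, and their part in the result was not tested. In UMIs, mouse cluster 2 held 27 molecules of Cd3d in 22 of 230 wells and no more than 3 in any well, while cluster 1 held 1585 in 396 of 470 wells and up to 18.

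Human CD3 reads were in turn found in mouse wells. CD3D was read in 7.17%, 67.9% and 6.60% of the wells of mouse cluster 1 and in 7.59%, 64.0% and 11.3% of mouse cluster 2. It was read in 96.8%, 99.3% and 78.0% of human cluster 1 and in 79.4%, 80.6% and 55.2% of human cluster 2, above the mouse wells in every library, although in 3'DE library 2 the intervals of human cluster 2 and the mouse clusters overlapped (64.0 to 91.8% against 63.6 to 72.0% in mouse cluster 1). Among the human reads in mouse cluster 1, CD3D was at 1131, 2638 and 2438 CPM of human reads, beside 2477, 2382 and 1897 CPM in human cluster 1. Among mouse reads in human cluster 1, Cd3d was at 207, 804 and 749 CPM of mouse reads, which lies between its levels in the 2 mouse clusters.

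**Figure D3:**
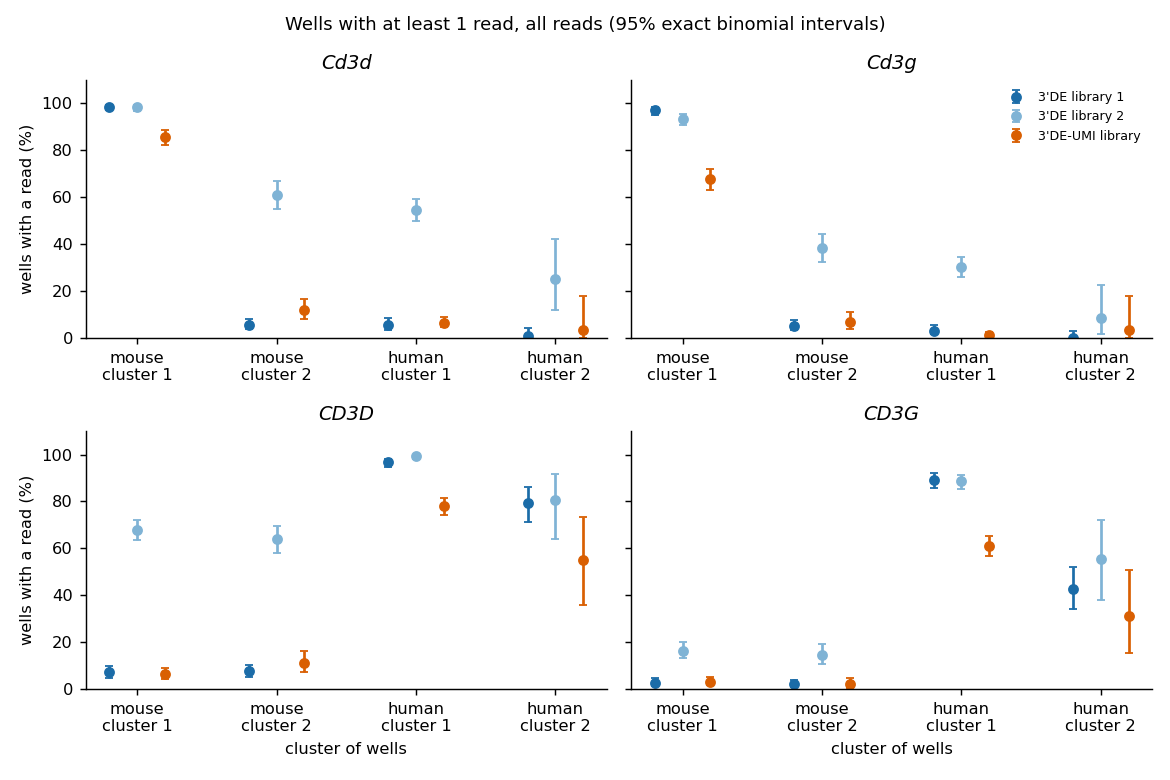
Share of wells with at least 1 read of Cd3d, Cd3g, CD3D and CD3G by cluster, all reads, with exact 95% binomial intervals; each point is 1 library. Mouse cluster 2 and human cluster 1 have similar shares for Cd3d (for example 61.1% and 54.7% in 3'DE library 2), and both human clusters lie above the mouse wells for CD3D.

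The 4 subunits were rarely seen together in 1 well. In mouse cluster 1, a read of all 4 genes was found in 4.22%, 8.63% and 2.55% of wells, and the pair Cd3d and Cd3g alone in 57.2%, 49.2% and 35.5%. In human cluster 1 all 4 were found in 7.13%, 9.38% and 2.27%, and CD3D and CD3G alone in 42.3%, 44.6% and 33.5%. Most wells with exactly 2 of the genes held this pair in both clusters 1 and all 3 libraries (for example 271 of 274 in mouse cluster 1 of 3'DE library 1). None of the 4 was read in 0.422%, 0% and 5.96% of the wells of mouse cluster 1 and in 2.703%, 0.670% and 13.6% of human cluster 1. In mouse cluster 2 none was read in 89.7%, 29.1% and 83.5%, and in human cluster 2 in 11.9%, 13.9% and 24.1%.

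**Figure D4:**
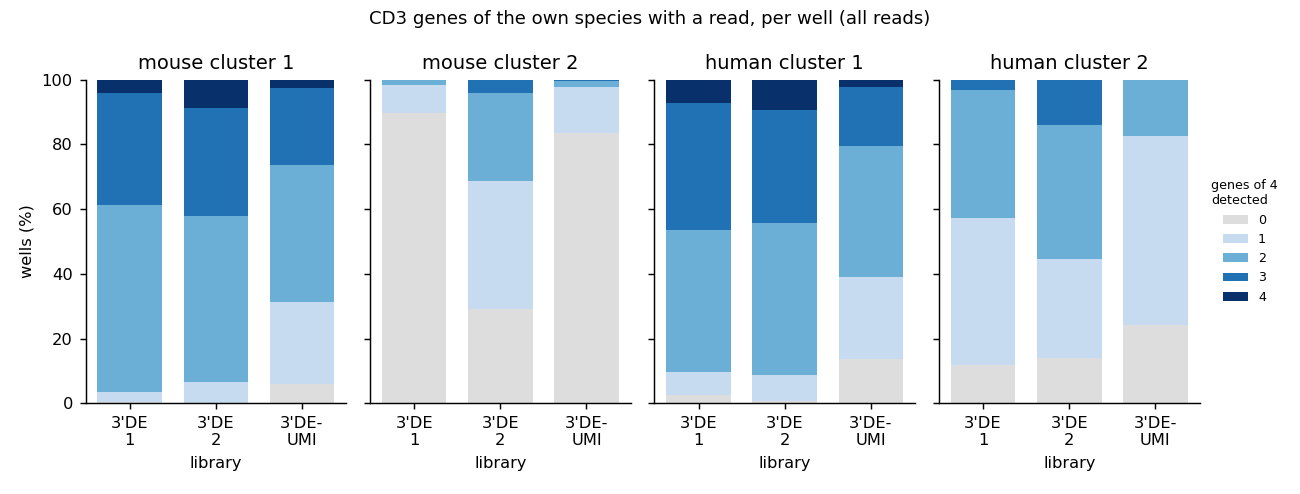
Wells by the number of the 4 own-species CD3 genes with at least 1 read (all reads), as a percentage of the wells of each cluster and library. Most wells of both clusters 1 hold 2 or more genes in every library, while in mouse cluster 2 the wells with none make up 89.7% (3'DE library 1), 29.1% (3'DE library 2) and 83.5% (3'DE-UMI library).

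Detection followed the depth of a well, for epsilon, zeta and CD3G in every library and for delta and Cd3g mainly in the 3'DE-UMI library. In mouse cluster 1 of 3'DE library 2, Cd3e was read in 12.8% of the wells of the lowest of 4 depth classes of equal size (median 9000 reads) and in 60.5% of the highest (median 172680 reads), and Cd247 in 7.20% and 40.3%. In human cluster 1 of that library, CD3E went from 12.5% to 39.3% and CD247 from 15.2% to 58.9% between the same classes (medians of 8275 and 192900 reads). There, Cd3d went from 93.6% to 100% and CD3D from 97.3% to 100%, whereas in the 3'DE-UMI library Cd3d went from 62.7% to 98.3% and CD3D from 44.7% to 100%. Absence of a read of Cd3e, Cd247, CD3E or CD247 in a well at the usual depth therefore says little about the cell.

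Across wells thinned to the same depth, the delta and gamma genes were almost unrelated. Spearman's rho between them was 0.13, 0.08 and 0.16 in mouse cluster 1 (459, 478 and 457 wells) and 0.04, 0.07 and 0.19 in human cluster 1 (391, 421 and 489 wells). With medians of 2 or 3 gamma reads per thinned well, these weak values describe sparse counts and are not taken as a relation.

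The delta and gamma shares of the reads were close between libraries in mouse cluster 1 and moved in human cluster 1, and the small epsilon share was highest in the 3'DE-UMI library in both. Cd3d gave 64.4%, 64.2% and 60.0% of the reads of the 4 mouse genes, Cd3g 34.0%, 34.1% and 36.1%, Cd3e 0.766%, 0.904% and 1.87% and Cd247 0.788%, 0.779% and 2.03%. The ratio of delta to gamma reads was 1.89, 1.88 and 1.67. In human cluster 1 the ratio was 4.23, 3.34 and 2.07, with CD3D falling from 78.5% and 75.4% of the 4 genes' reads in the 3'DE libraries to 64.7% in the 3'DE-UMI library. Because the reads per UMI differed between the genes, these shares of reads alone do not order the transcripts by abundance. In mouse cluster 2 the delta to gamma ratio was 1.86, 1.10 and 0.820.

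The protocols were compared within each cluster. As 3'DE-UMI was 1 library, its own spread was not measured, and protocol and library cannot be told apart in any of these comparisons. The edgeR values rest on the spread of the 3'DE libraries pooled over all genes tested, and little on that of a single gene. In human cluster 1, CD3E was at 19.3 ± 1.39 CPM (SD, n = 2) in the 3'DE libraries and at 83.99 CPM in the 3'DE-UMI library. Its log2 difference of 3'DE-UMI minus 3'DE was 2.27 ± 0.44 (4.83-fold, 95% interval 2.51 to 9.29, edgeR adjusted p = 0.0051). It was the 1 of 4 human genes called, against a background of 12.6% of 13731 genes in either direction and 5.45% called higher. The other log2 differences were -0.21 ± 0.24 for CD3D, 0.64 ± 0.29 for CD3G and -0.80 ± 0.48 for CD247, with adjusted p-values of 0.59, 0.17 and 0.29. Of the 4 genes, 2 (CD3E and CD3G) had an unadjusted p under 0.05. These fits had 1 residual degree of freedom among the 3 sums.

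In mouse cluster 1, 0 of 4 genes were called between the protocols with edgeR, and 0 with DESeq2, against a background of 12.7% of 11794 genes; 1, Cd247, had an unadjusted p under 0.05. Cd3e was at 22.2 ± 4.98 CPM in the 3'DE libraries and at 44.1 CPM in the 3'DE-UMI library, a log2 difference of 0.86 ± 0.41 (95% interval -0.01 to 1.73, adjusted p = 0.18). Cd247 was at 20.7 ± 2.09 and 48.0 CPM, a log2 difference of 1.08 ± 0.41 (0.23 to 1.93, adjusted p = 0.088). The differences for Cd3d and Cd3g were -0.39 ± 0.30 and -0.21 ± 0.31. When UMIs of the 3'DE-UMI library were set against reads of the 3'DE libraries, Cd3e was at 1.80 ± 0.39 (adjusted p = 0.017), but this change of unit by itself raises a gene with few reads per UMI, as Cd3e is (6.40 against a median of 13.5). The zeta chain had opposite signs in the species, positive for Cd247 and negative for CD247, and neither value passed its test. In the clusters 2, 0 of 4 genes were called in either species with edgeR or DESeq2, at backgrounds of 2.39% (mouse) and 2.38% (human). At an unadjusted p under 0.05 there were 0 in mouse cluster 2 and 1, CD247, in human cluster 2, where the 3'DE-UMI library held no CD247 read.

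Fewer wells held a read of delta or gamma in the 3'DE-UMI library than in the 3'DE libraries. Thinned to 5000 reads, Cd3d was read in 99.1%, 98.3% and 82.1% of wells in mouse cluster 1, a distance of -16.7 percentage points from the 3'DE mean, whose SD was 0.568 (n = 2). Cd3g was read in 92.2%, 84.3% and 60.0% (-28.3 points, SD 5.55), CD3D in human cluster 1 in 97.4%, 98.6% and 79.1% (-18.9 points, SD 0.801) and CD3G in 80.8%, 77.4% and 57.1% (-22.1 points, SD 2.39). The distance was larger than the SD for all 4 genes. With 2 libraries against 1, no permutation p under 0.33 is possible, and no test was made.

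Epsilon did not share this loss. Cd3e was read in 8.06%, 8.37% and 12.5% of thinned wells (4.26 points higher with 3'DE-UMI, SD 0.217) and CD3E in 7.42%, 7.13% and 14.5% (7.25 points higher, SD 0.206). CD247 was read in 21.5%, 15.2% and 4.09% (-14.3 points, SD 4.44), while Cd247 stayed within the SD at 4.36%, 6.49% and 6.13%. With all reads in place of thinned wells, the distance was -0.716 points for Cd3e and 4.33 points for CD3E.

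**Figure D5:**
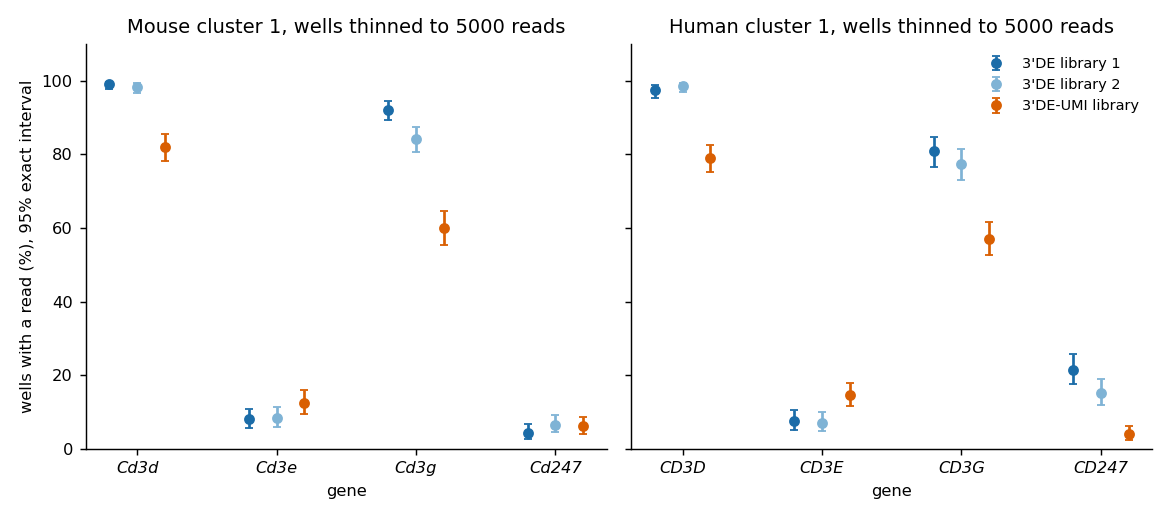
Share of wells of mouse cluster 1 and human cluster 1 with at least 1 read of each CD3 gene after thinning every well to 5000 reads, with exact 95% binomial intervals; each point is 1 library. The 3'DE-UMI library lies below both 3'DE libraries for delta and gamma (82.1% against 99.1% and 98.3% for Cd3d) and above them for epsilon in both species.

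Wells with few delta reads were more common with 3'DE-UMI. In thinned wells of human cluster 1 the median number of CD3D reads was 12, 11 and 6, and the quartiles were 7 and 16, 6 and 16, and 2 and 12. For Cd3d in mouse cluster 1 the medians were 7, 8 and 6 with quartiles of 5 and 10.5, 5 and 12, and 2 and 10. The lower quartile fell to 2 reads in the 3'DE-UMI library for both genes.

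UMIs of the 3'DE-UMI library, counted by the authors with another tool than the reads, gave a number of molecules beside these reads. Mouse cluster 1 held 1585 UMIs of Cd3d, 765 of Cd3g, 126 of Cd3e and 54 of Cd247 over 470 wells. Human cluster 1 held 1850 UMIs of CD3D, 791 of CD3G, 127 of CD3E and 33 of CD247 over 528 wells. A well with Cd3d held 4.003 ± 3.16 UMIs of it (SD over wells) and a well with CD3D 4.57 ± 5.07, whereas wells with Cd3e, Cd247, CD3E or CD247 held 1.10 to 1.299 on average. Human cluster 2 held 25 UMIs of CD3D and 8 of CD3G, and 0 of CD3E and CD247. Set against all UMIs, CD3D was at 1687 CPM (exact Poisson 95% interval 1611 to 1766) in human cluster 1 and 1832 CPM (1185 to 2704) in human cluster 2.

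The number of reads per UMI differed between subunits and shifted their balance. It was 16.0 for Cd3d, 19.97 for Cd3g, 16.1 for Cd247 and 6.40 for Cd3e, and the median over 3308 mouse genes with at least 100 UMIs was 13.5 (quartiles 11.2 and 15.3). Cd3g exceeded 99.2% of these genes, while Cd3e exceeded 7.50%. In the human wells it was 15.6 for CD3D, 17.6 for CD3G, 14.3 for CD247 and 10.1 for CD3E, with a median of 16.4 over 1530 genes (quartiles 13.2 and 18.6). Epsilon had the fewest reads per UMI of the 4 subunits in both species. Counted in UMIs, epsilon made up 4.98% of the 4 mouse genes in mouse cluster 1 and 4.53% of the human genes in human cluster 1, compared with 1.87% and 2.87% in reads. Reads and UMIs were counted by the authors with different tools, mappa and the Drop-seq tools. Differences in alignment and gene assignment can thus enter these ratios, and their part was not tested.

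Wells classed as mixed held human and mouse delta together in part. Both CD3D and Cd3d were read in 15 of 180, 85 of 175 and 8 of 36 mixed wells (8.33%, 48.6% and 22.2%). CD3D was read in 77.2%, 82.3% and 44.4% of them and Cd3d in 12.8%, 57.1% and 36.1%, so human delta was read more often in the 3'DE libraries, while the intervals overlapped in the 3'DE-UMI library (27.9 to 61.9% and 20.8 to 53.8%).

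Genes with a pattern most like the mouse complex were sought by Pearson's r of log2(CPM + 1) with the mean of the 4 genes over the 6 sums (2 clusters in 3 libraries), among 2989 mouse genes with a mean of at least 50 CPM. The closest were ENSMUSG00000035105 (r = 0.999), with mouse cluster 1 at 150.3, 192 and 196 CPM and mouse cluster 2 at 6.32, 14.8 and 8.44 CPM, and ENSMUSG00000000782 (r = 0.999), with 328, 362 and 451 CPM and 5.28, 17.4 and 6.28 CPM. As the 6 sums share libraries and fall into 2 clusters, r mainly repeats the difference between clusters and is given as a description. For the human genes, the 3 closest of 3007 (r = 0.993 to 0.995) were at 0 in human cluster 2 of the 3'DE-UMI library, the sum with the fewest reads, and are not named.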

How the data were processed

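Expression had been measured in single wells of 3 iCELL8 libraries of the 4-line mixture. The deposited tables hold counts: uncollapsed read numbers for every gene in every well, made by the authors with mappa (STAR 2.7.0b) on a combined hg19 and mm10 reference (Cell Ranger 1.2.0), and, for the 3'DE-UMI library, UMI counts made by the authors with the Drop-seq tools (STAR 2.4.2a). Per the study's methods, these tools were run on downsampled reads. That the deposited tables are those outputs is not stated outright.

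Wells were kept with at least 1000 reads and 200 genes, and mixed wells (minor species at 10% or more) were left out. Same-species doublets could not be found, and no doublet caller was run. Genes were divided at random into 2 sets, with the 8 CD3 genes in the first. Wells were clustered per species with scanpy 1.11.5 (10000 counts per well, log, 1000 variable genes, scaling within library limited to 10, 20 components, 15 neighbours, Leiden resolution 0.1), and genes of each set were tested on wells clustered on the other.

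For each library, the reads of a cluster's wells were added up and fitted with edgeR 4.0.16 (filterByExpr, TMM, quasi-likelihood F-test, two-sided, Benjamini-Hochberg over all genes of the species tested, threshold 0.05). The library was a block in the 6 sums of a cluster comparison, and protocol comparisons had 3 sums. Standard errors were derived from the F statistic. DESeq2 1.42.0 and the other alternatives are given in the closing section. Shares have exact binomial intervals. Those intervals, the Poisson intervals of UMIs and the limits (3 counts for a count of 0) cover counting error only. Reads are not independent molecules, and counting error leaves that out. The edgeR intervals use the spread between library sums, pooled over genes. A planned list of T-cell receptor genes and the planned line markers could not be matched to identifiers and were not evaluated. The members and lists were chosen with earlier results of these data known. Named genes were the 8 members and, by a rule, the genes most like them (2 of 3 printed).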

Additional observations from a re-analysis of the deposited data

Results flagged for a closer look

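Among the barcodes with UMIs in the 3'DE-UMI preparation, 1543 had no column in its read table and entered no comparison. Under them, 41 UMIs of CD3D, 12 of CD3G, 37 of Cd3d and 25 of Cd3g were counted, each above the 3 counts that a count of 0 allows, while CD3E and Cd3e had 2 each and CD247 and Cd247 had 0. These barcodes held 92828 of the 3833017 UMIs of the whole table. The whole table held 2036 UMIs of CD3D, 853 of CD3G, 1712 of Cd3d and 821 of Cd3g. The counts under these barcodes are to be read beside those totals, and an excess was not tested.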

How the results depend on the processing

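All 4 mouse CD3 genes were called higher in mouse cluster 1 under each of the 13 alternatives, and leaving out each library in turn gave 4 to 4 calls. No human gene was called between the human clusters under any of them (0 to 0 when leaving out each library), and CD3E passed the threshold between the protocols in human cluster 1 under all 6 alternatives with a test, which use the same 3 sums with 1 library for 3'DE-UMI and add no replicate. With UMI counts for the 3'DE-UMI library against reads of the others, the log2 difference of Cd3e in mouse cluster 1 was 1.80, where reads gave 0.86. The few reads per UMI of Cd3e raise this value by construction, although its sign was the same in reads. The same holds for the UMI alternative of CD3E, at 10.1 reads per UMI against a median of 16.4. No call changed without the replicate block.

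Values that passed no test turned their sign. Between the human clusters, the log2 difference of CD3D was -0.19 with RLE factors, -0.19 with DESeq2, -0.15 with no replicate block, -0.08 without 3'DE replicate 1 and -0.42 without the 3'DE-UMI library. That of CD3G was -0.063 with RLE factors, -0.061 with DESeq2, -0.063 with UMI counts, -0.080 with no replicate block and -0.71 without the 3'DE-UMI library, and that of CD3E was -0.11 without the 3'DE-UMI library. Leaving out each library in turn gave -0.42 to 0.35 for CD3D, -0.71 to 0.71 for CD3G and -0.11 to 1.66 for CD3E. Between the protocols in mouse cluster 2, Cd3g was 0.0077 after thinning and -1.12 to 1.09 without 1 of the 3'DE libraries, and Cd3d 0.23 with UMI counts. The cause was not tested.

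Differences between the protocols in the share of wells with a read, in percentage points as 3'DE-UMI minus the 3'DE mean, moved by over the SD as follows. With all reads they were -12.8 for Cd3d, -0.716 for Cd3e, -9.12 for Cd247, -20.0 for CD3D, 4.33 for CD3E, -27.7 for CD3G and -29.3 for CD247. Thinned to 2000 reads they were -20.6, 1.41, 3.14, -25.8, 4.40, -12.7 and -5.11 for the same genes. At 2 reads or more they were -19.2, 4.66, 3.12, -21.5, 6.24, -13.5 and -3.54. With UMIs, not thinned, they were -14.1, -7.74, -9.75, -21.4, -0.221, -29.2 and -30.1. The sign turned for Cd3e and Cd247 with all reads and with UMIs and for CD3E with UMIs, and held for delta, gamma and CD247.

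Human cluster 2 gave sparse sums, and 3'DE-UMI was 1 library. Calls of all genes between the mouse clusters ranged from 2983 to 5662 and between the human clusters from 29 (without 3'DE replicate 1) to 1497 (DESeq2). Without 3'DE replicate 2, 223 human genes were called, with no replicate block 133, with UMI counts 949 and with at least 5000 reads 247, against 396.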
